A study of Mus musculus with 12 samples.

Results

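Cytl1 encodes cytokine-like protein 1, a small secreted protein, and was followed in RNA-seq of the mouse aorta after infusion of porcine pancreatic elastase (PPE). The gene was picked from these same libraries, as a strong fall 1 week after PPE with a partial return at 2 weeks. Its own levels are therefore given as a description, with no test. It was 1 RefSeq accession, NM_001081106, of 34755 in the count table and of the 12756 that passed the filter on low counts.

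In all, 3 groups of 4 male C57BL/6J mice were compared, all 10 weeks old, with 1 aorta library from each animal. PPE week 1 mice had the infrarenal aorta infused with elastase, an enzyme that digests elastic fibres and makes the vessel dilate, and their aortas were taken at day 7. PPE week 2 mice had the same infusion and were harvested at day 14. Saline mice had the segment infused with saline and were harvested at day 7. No saline group of day 14 was analysed here, so time and treatment cannot be told apart at week 2. The libraries are of whole tissue, in which fewer cells of a type and less RNA per cell cannot be told apart.

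Cytl1 was first found in human CD34+ blood precursor cells and was named for a predicted fold like that of cytokines. In the mouse it is known as a product of chondrocytes, the cells of cartilage, where it has been tied to the making and upkeep of cartilage matrix. CCR2, the chemokine receptor by which monocytes are drawn into tissue, has been reported as a receptor for it. Aortic dilation after elastase is known to come with loss of contractile smooth muscle genes and entry of monocytes, which is why lists of cartilage, CCR2 and cell type genes were set beside Cytl1.

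The gene lies on the plus strand of chromosome 5 at 37735519 to 37739820 (GRCm38, mm10). GENCODE gives the main transcript 4 exons, 974 bases and a coding sequence of 417 bases, which is 139 codons without the stop. There were 0 other RefSeq genes over its span, so the lack of strand in the libraries does not mix its reads with those of another annotated gene. The window around its start site, from RefSeq on GRCm38.p6, is shown because the genes that moved with Cytl1 were searched for the same motifs, at chr5:37735269-37735568 on the plus strand. The capitals mark, in order, a GC box, a TATA-like run, an E box and the start codon.
Cytl1 promoter: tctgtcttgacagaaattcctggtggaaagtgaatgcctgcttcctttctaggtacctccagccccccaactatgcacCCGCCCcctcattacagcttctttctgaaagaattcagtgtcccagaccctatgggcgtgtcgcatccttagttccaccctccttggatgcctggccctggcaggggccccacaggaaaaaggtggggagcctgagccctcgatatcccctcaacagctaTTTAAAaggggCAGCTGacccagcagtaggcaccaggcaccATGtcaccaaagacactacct

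The motifs were chosen after the sequence was seen, and a match is a description only. Both strands were searched. The TATA-like run TTTAAA began 12 bases before the annotated start and occurs in 13.2% of 32851 promoter windows of this length. The GC box CCGCCC began 172 bases before the start and occurs in 35.7% of them. The E box CAGCTG, the kind bound by basic helix-loop-helix factors, spanned the start and occurs in 16.3%. The TATA box TATAAA, in 13.6% of windows, was not found in these letters. The SOX core ACAAT, in 31.0%, and the AP-1 site TGACTCA, in 5.2%, were not found either. Nor were the CCAAT box, in 37.4%, the TEAD site GGAATG, in 14.7%, and the SRF site, in 1.6%.

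Cytl1 was lowest at PPE week 1 and between the other groups at PPE week 2. At PPE week 1 the 4 libraries had 6.88, 4.87, 10.0 and 8.28 CPM (counts per 1000000 counts of a library after TMM scaling), from raw counts of 75, 44, 134 and 83. The PPE week 2 libraries had 57.7, 23.7, 33.2 and 30.1 CPM, from 619, 247, 379 and 418 counts. The saline libraries had 57.5, 67.6, 45.2 and 76.6 CPM, from 661, 454, 346 and 592 counts. Every PPE week 1 library lay below every library of the other groups. The PPE week 2 and saline groups overlapped, because 1 PPE week 2 library, replicate 1, was as high as a saline one while the other 3 lay below all saline libraries.

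**Figure D1:**
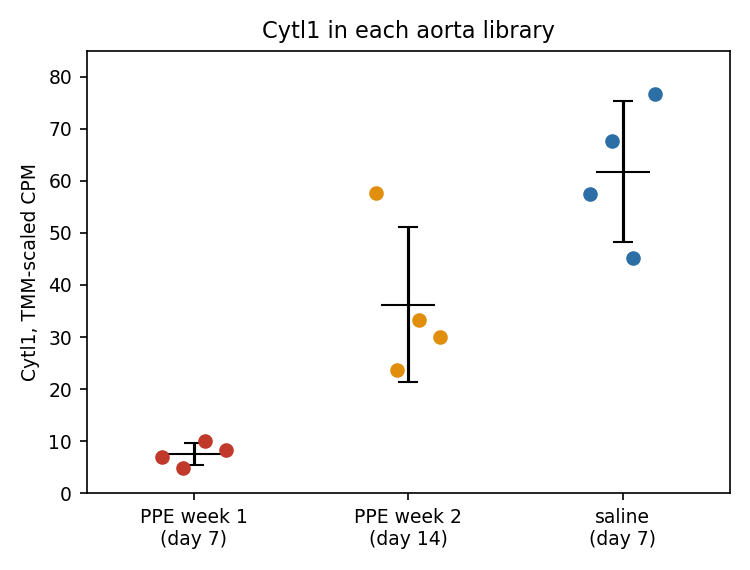
Cytl1 level in TMM-scaled CPM in each of the 12 aorta libraries; points are libraries, long bars group means and capped bars SDs (n = 4 per group). PPE week 1 libraries sit between 4.87 and 10.0 CPM, below PPE week 2 at 23.7 to 57.7 and saline at 45.2 to 76.6.

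The mean was 7.51 ± 2.18 CPM at PPE week 1, 36.2 ± 14.9 CPM at PPE week 2 and 61.8 ± 13.5 CPM in saline (SD, n = 4 each), so that PPE week 1 stood at 12.2% and PPE week 2 at 58.6% of the saline mean. The log2 fold change was -3.03 ± 0.31 (SE) at PPE week 1 against saline, an 8.17-fold lower level. Against saline at PPE week 2 it was -0.77 ± 0.28, a 1.71-fold lower level. Between the weeks it was 2.26 ± 0.30, a 4.79-fold higher level at PPE week 2 than at PPE week 1. The gain between the weeks was 74.5% of the log2 difference at PPE week 1. The spread between animals, as the SD of log2 CPM, was 0.43 at PPE week 1, 0.54 at PPE week 2 and 0.33 in saline, against a counting error of at most 0.22, 0.09 and 0.08 in any library of those groups.

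Levels compared between genes need a length. Per kilobase of transcript, Cytl1 had 7.72 ± 2.24 CPM at PPE week 1, 37.1 ± 15.3 at PPE week 2 and 63.4 ± 13.9 in saline (SD, n = 4 each). That placed its level above 60.7%, 92.8% and 96.6% of the 12515 tested features with a length, in the same order of groups. In saline aorta it was thus among the more abundant transcripts, and at PPE week 1 it stood nearer the middle.

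All libraries held 8343313 to 12269131 counts, and a ribosomal RNA precursor took a share of them that moved with the groups. The share was 21.0 to 34.6% at PPE week 1, 19.5 to 22.1% at PPE week 2 and 36.2 to 49.9% in saline, with saline above both PPE groups without overlap. With the precursor left out, the log2 change of Cytl1 at PPE week 1 against saline was -3.03, and with the share as a covariate it was -3.18. With the same covariate it was -1.04 at PPE week 2 against saline, whereas scaling by library size alone gave -0.29 there, when the median of all features was 0.54. How reads shared between accessions of a gene were counted is not known here. Pecam1 and Tek, which define endothelium, had 0 counts in every library.

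Against all features, Cytl1 had the 49th lowest log2 change of 12756 at PPE week 1 and the 2nd lowest of the 3574 with at least its mean CPM. For background, 3.91% of features passed as lower there and 3.98% as higher (edgeR quasi-likelihood test, Benjamini-Hochberg adjusted p under 0.05). In the authors' deposited table its log2 change was -2.90 at PPE week 1 against saline, the 5th lowest of 13810 rows, and -0.65 at PPE week 2, the 371st lowest of 9917.

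**Figure D2:**
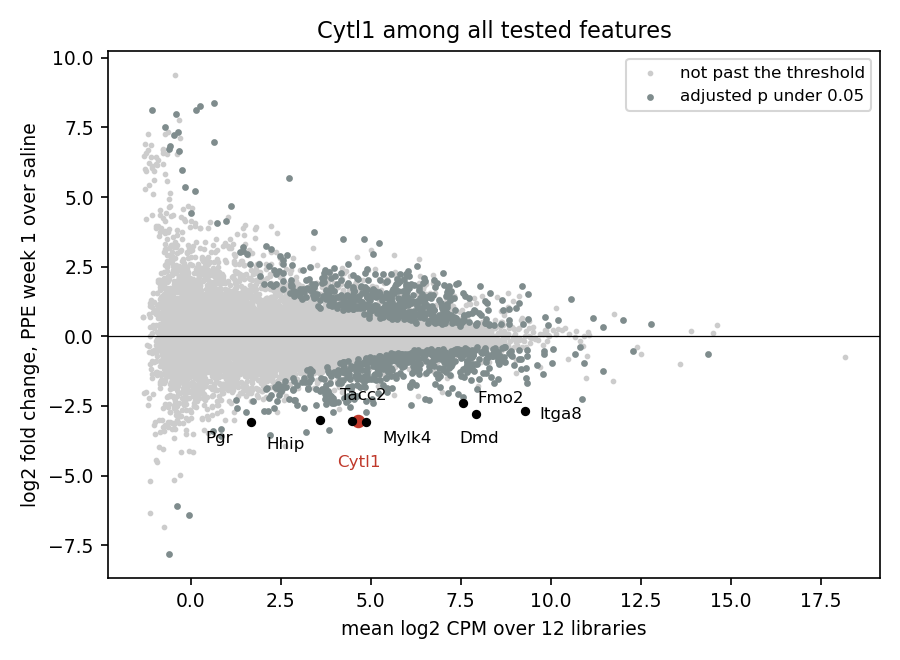
Log2 fold change of PPE week 1 over saline against mean log2 CPM over 12 libraries for all 12756 tested features, dark where the adjusted p was under 0.05. Cytl1 (red) lies at -3.03 beside Tacc2 at -3.03 and Mylk4 at -3.09, with few features of its abundance lower.

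The 5 called features next to Cytl1 in the order of log2 change at PPE week 1 against saline were Mylk4, Pgr, Tacc2, Hhip and Dmd. Mylk4, of the myosin light chain kinase family, had -3.09 and Pgr, the progesterone receptor, had -3.08. Tacc2, a coiled-coil protein of the centrosome, had -3.03 and Hhip, which binds and restrains hedgehog ligands, was 7.98-fold lower. Dmd, dystrophin, which links the cytoskeleton to the matrix, had -2.79. The same quantity at PPE week 2 against saline was -0.53 for Mylk4, -0.25 for Pgr, -0.33 for Tacc2, -0.86 for Hhip and -0.27 for Dmd, beside -0.77 for Cytl1. The comparisons share their saline libraries. Pgr missed the threshold at PPE week 1 by limma-voom, with the ribosomal RNA covariate, and when any 1 of 4 libraries was left out: replicates 3 and 4 of saline, and replicates 1 and 2 of PPE week 1.

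The profile over all 12 libraries, group differences included, was most like that of Fmo2, a flavin monooxygenase, with a Pearson r of 0.958 in log2 CPM. Plcb4 had 0.956, Pcp4l1 0.952, Wdr60 0.952, Myo18b 0.951, Sh3bgr 0.951, D830031N03Rik 0.950, Ptprd 0.948, Ptprb 0.947 and Itga8 0.945. Of 8565 features with a mean of at least 5 CPM, 60 had an r of at least 0.9 and 39 one of at most -0.9. This likeness rests on the group pattern by which Cytl1 was picked, so it carries no test. Adjusted p-values given below for Plcb4, D830031N03Rik and Ptprb come from the edgeR fit of all features. They are a description, because a likeness over all libraries already holds the group differences. Fmo2 had 81.3, 43.9, 78.8 and 87.8 CPM at PPE week 1, 296, 212, 334 and 164 CPM at PPE week 2 and 344, 338, 439 and 430 CPM in saline. Its groups did not overlap. Itga8, the integrin subunit of smooth muscle, averaged 213 ± 94.1 CPM at PPE week 1, 930 ± 338 at PPE week 2 and 1365 ± 186 in saline (SD, n = 4 each).

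Within groups, with each group's mean subtracted from log2 CPM, the order of genes changed. Arhgef28, a guanine nucleotide exchange factor for RhoA, came first with an r of 0.92 over the 12 libraries. Plcb4, a phospholipase C that acts below Gq-coupled receptors, also had 0.92, and Rnf141, a RING finger protein, had 0.91. Ech1, an enzyme of fatty acid oxidation, had 0.91, and Scd2, a fatty acid desaturase, had 0.89. Mical3, an oxidase that acts on actin, had 0.88, Gm6710 had 0.88 and Atp1b1, a subunit of the sodium pump, had 0.88. Col6a6, a chain of collagen VI, also had 0.88, and Clpb, a mitochondrial chaperone, had 0.87. The points share libraries, depth and scaling, and no p is given for genes chosen by their r.

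At the other end, Plekho1, which binds the kinase CK2, had an r of -0.94 within groups and Larp1, which binds messenger RNAs of the translation machinery, had -0.92. Tdrd3, a Tudor domain protein, had -0.88. Rps18, a ribosomal protein whose pseudogene copies make its count uncertain, had -0.87, and Myh9, the heavy chain of non-muscle myosin IIA, had -0.86. Of the 8565 features, 49 had an r of at least 0.8 and 52 one of at most -0.8. Within groups, the r of Cytl1 with the share of the ribosomal RNA precursor was -0.17 and with the total count 0.04.

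**Figure D3:**
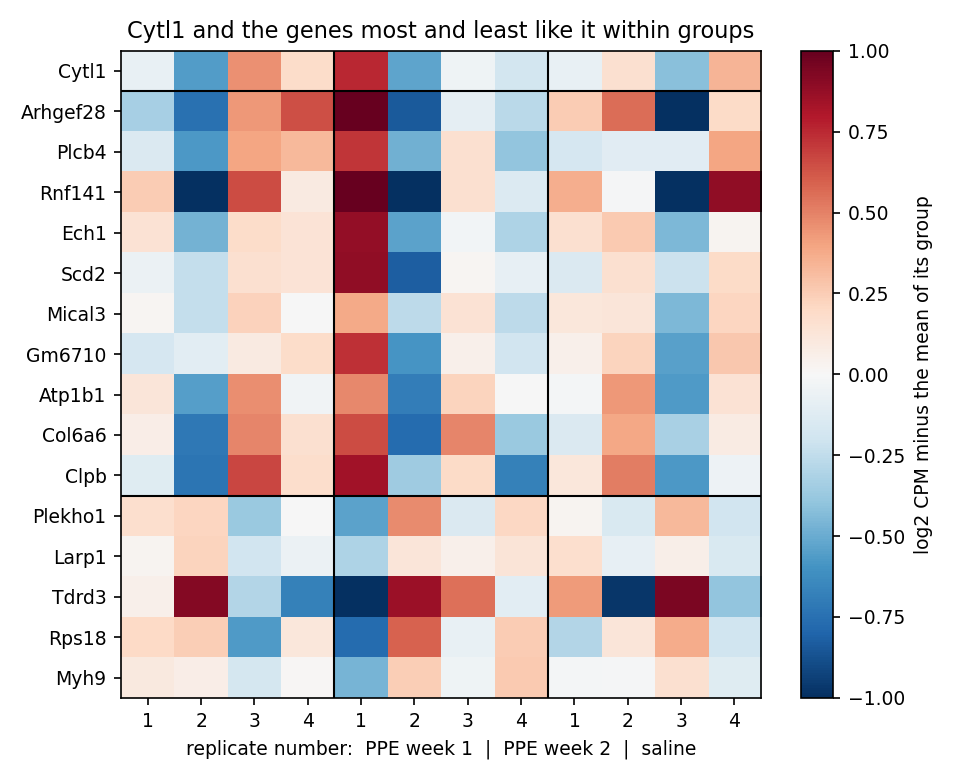
Log2 CPM minus the group mean in each of 12 libraries (columns, by replicate number within PPE week 1, PPE week 2 and saline), for Cytl1, the 10 genes with the highest r to it within groups and the 5 with the lowest. Colours end at 1 above and below the mean. PPE week 2 replicate 1 is high and replicate 2 low in Cytl1 and the 10 genes, with the reverse in the lower 5.

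The 20 features most like Cytl1 within groups reached down to an r of 0.845, and 18 of the 20 had a log2 change below 0 at PPE week 1 against saline, where 49.8% of all features did. Their median was -0.46, against 0.00 for all tested features. Of the 20, 4 fell (edgeR adjusted p under 0.05), against a background of 3.91% lower. At PPE week 2 against saline, where 1.35% of features were lower and 1.3% higher, 0 of the 20 passed in either direction by edgeR, DESeq2 or limma-voom, and with unadjusted edgeR p-values 2 were higher and 2 lower. Between the weeks, at PPE week 2 against PPE week 1, 5 rose and 1 fell, against backgrounds of 3.77% higher and 2.82% lower. With the share of the ribosomal RNA precursor as a covariate, 0 of the 20 passed in any of these comparisons.

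Plcb4 and D830031N03Rik were the 2 of the 20 that were also among the 10 most like Cytl1 over all libraries. Plcb4 had 58.7, 43.7, 85.4 and 81.3 CPM at PPE week 1, 218, 95.3, 149 and 101 CPM at PPE week 2 and 169, 175, 175 and 250 CPM in saline. All PPE week 1 libraries lay below the rest, while PPE week 2 and saline overlapped. Its log2 change at PPE week 1 against saline was -1.51 ± 0.27 (edgeR adjusted p = 0.00552), a 2.86-fold lower level.

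Col6a6 fell at PPE week 1, with 36.2, 20.9, 48.5 and 38.6 CPM there, 146, 54.4, 130 and 71.6 CPM at PPE week 2 and 101, 145, 89.0 and 118 CPM in saline. Its log2 change was -1.65 ± 0.32 at PPE week 1 against saline (edgeR adjusted p = 0.00809). PPE week 1 overlapped neither of the other groups. D830031N03Rik had -0.81 ± 0.16 (edgeR adjusted p = 0.00682, up to 0.110 over the other settings).

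Between the weeks, Mical3 rose by 1.04 on the log2 scale at PPE week 2 against PPE week 1 (edgeR adjusted p = 0.00333). Col6a6 rose by 1.48 (edgeR adjusted p = 0.0150, at most 0.0540 with a library left out), Plcb4 by 1.07 (0.0324, at most 0.102) and Ech1 by 1.05 (0.0302, at most 0.111). Anpep, the membrane aminopeptidase N, fell by 0.51 (edgeR adjusted p = 0.0442, at most 0.125 with a library left out). The gene first in likeness did not pass: Arhgef28 averaged 26.6 ± 11.4 CPM at PPE week 1, 35.5 ± 24.2 at PPE week 2 and 36.2 ± 13.9 in saline (SD, n = 4 each), with an edgeR adjusted p of 0.662 at PPE week 1 against saline.

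Of the 5 genes with the lowest r, Plekho1 and Myh9 rose at PPE week 1, against a background of 3.98% higher. With the ribosomal RNA share as a covariate neither of them passed. Plekho1 had 104, 107, 71.6 and 92.3 CPM at PPE week 1, 60.1, 121, 79.2 and 101 CPM at PPE week 2 and 50.3, 44.3, 61.7 and 43.1 CPM in saline. PPE week 1 lay above saline without overlap, and its log2 change was 0.91 ± 0.21 (edgeR adjusted p = 0.0143, at most 0.0555 with a library left out). Myh9 had a log2 change of 0.65 ± 0.14 at PPE week 1 against saline (edgeR adjusted p = 0.00847).

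The order of likeness was unstable. With Spearman's rho 11 of the 20 stayed among the 20 most like, and without the PPE week 1 libraries, where Cytl1 counts were lowest, 4 did. Leaving out 1 library kept 6 to 17. Of the promoters, 15 of the 20 could be matched: 11 held CCGCCC, 4 held CAGCTG and 0 held TTTAAA. Over all promoter windows the shares were 35.7%, 16.3% and 13.2%, and no difference from them was tested.

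The annotated neighbours of Cytl1 were followed because they share its stretch of chromosome 5. Stk32b, a serine/threonine kinase that ends 18366 bases before Cytl1, had 0.37, 1.33, 3.14 and 2.99 CPM at PPE week 1, 9.05, 14.2, 6.57 and 6.84 CPM at PPE week 2 and 6.62, 6.26, 9.02 and 18.2 CPM in saline. Its PPE week 1 libraries lay below all others. The log2 change of Stk32b was -2.34 ± 0.59 at PPE week 1 against saline (edgeR adjusted p = 0.0230, at most 0.0969 with a library left out) and 2.21 ± 0.59 at PPE week 2 against PPE week 1 (adjusted p = 0.0326, at most 0.112). The first missed the threshold without saline replicate 4, without PPE week 1 replicate 1 or without PPE week 1 replicate 2. It also missed it by limma-voom with all libraries. With the ribosomal RNA share as a covariate neither change passed. The r of Stk32b with Cytl1 within groups was 0.25.

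Evc2 and Evc, whose products act in hedgehog signalling at the cilium, lie farther before Cytl1. Evc2 had a log2 change of 1.01 at PPE week 2 against PPE week 1 (edgeR adjusted p = 0.0429) and Evc had 0.80 (0.0400). The adjusted p was at most 0.143 and 0.149 when a library was left out. Both missed the threshold with the ribosomal RNA share as a covariate. At PPE week 1 against saline neither passed, with -0.81 for Evc2 and -0.59 for Evc. On the other side, Msx1 had 34 counts over all libraries and Stx18 had 0, so neither was tested. Nsg1 had 0.03 at PPE week 1 against saline (edgeR adjusted p = 0.978).

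The calls among cartilage genes were too few to set apart from the shares over all features. The shares were 3.98% higher and 3.91% lower at PPE week 1 against saline, and 1.3% and 1.35% at PPE week 2 against saline. At PPE week 2 against PPE week 1 they were 3.77% and 2.82%. Of 27 listed, 16 were tested, and at PPE week 1 against saline 0 passed by edgeR or limma-voom, with 1 higher by DESeq2 and 1 higher at an unadjusted p under 0.05. Their median log2 change was 0.29. Sox9, the master regulator of chondrocytes, had 0.29 at PPE week 1 (edgeR adjusted p = 0.840). Acan, the aggrecan core protein, had 1.51 (0.0746), and Comp, a cartilage matrix protein, had -0.67 (0.328). Col2a1, the main collagen of cartilage, had 26 counts over all libraries and was not tested, while Ucma, Snorc and Cnmd had 0 counts. By PPE week 2, against saline, Col10a1, the collagen of hypertrophic chondrocytes, rose by 2.08 on the log2 scale (edgeR adjusted p = 0.0467). Its adjusted p was up to 0.115 with a library left out. It missed the threshold in 15 of 21 alternatives, limma-voom and the ribosomal RNA covariate among them. PPE week 2 replicate 1, at 4.10 CPM, lay within the saline range of 1.79 to 7.12 CPM. Col11a1 fell by 1.41 at PPE week 2 against PPE week 1 (edgeR adjusted p = 0.0377, up to 0.0903 with a library left out). That call was lost in 12 of 21 alternatives.

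By edgeR on all 12 libraries, genes of the CCR2 axis did not pass in any of the 3 comparisons. With 5 genes, this cannot be set apart from the shares over all features, at most 3.98% in either direction. All 5 genes, Ccr2 and its ligands Ccl2, Ccl7, Ccl8 and Ccl12, were above 0 at PPE week 1 against saline, with a median log2 change of 1.20. By edgeR 0 of 5 passed, and likewise by limma-voom, while 2 were higher by DESeq2, 4 at an unadjusted p under 0.05 and all 5 by edgeR with only the PPE week 1 and saline libraries in the fit. Ccr2 had 0.96 (edgeR adjusted p = 0.197) and Ccl2 had 1.62 (0.203). Their median at PPE week 2 against saline was 0.00, with 0 passing by edgeR, DESeq2 or limma-voom and 0 at an unadjusted p under 0.05. At PPE week 2 against PPE week 1 all 5 were below 0, with a median of -1.23. There 0 passed by edgeR, while 2 were lower by DESeq2, 3 by limma-voom and 2 at an unadjusted p under 0.05. The summed level of the 5 genes was 447 to 506 CPM at PPE week 1, 81.1 to 385 CPM at PPE week 2 and 186 to 261 CPM in saline.

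Most smooth muscle genes fell at PPE week 1, by less than the -3.03 of Cytl1 in each case. Of 16 tested, 12 fell, against the background of 3.91%, with a median log2 change of -1.38. Acta2, smooth muscle actin, had -1.25 (edgeR adjusted p = 0.0116), Tagln had -1.51 (0.00406) and Cnn1 had -1.85 (0.00403). Myh11, the smooth muscle myosin heavy chain, had -2.47 (0.00820). The 12 were 9 by limma-voom, which did not call Myh11, 10 to 13 with a library left out and 3 with the ribosomal RNA share as a covariate, where none of these 4 genes passed. Between the weeks 11 of the 16 rose at PPE week 2 against PPE week 1, against the background of 3.77%. The 11 were 10 to 12 with a library left out and 3 to 13 over the other settings. The summed level of the list was 2929 to 4949 CPM at PPE week 1, 7131 to 15180 CPM at PPE week 2 and 8872 to 11320 CPM in saline, and its part in the Cytl1 difference was not tested.

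**Figure D4:**
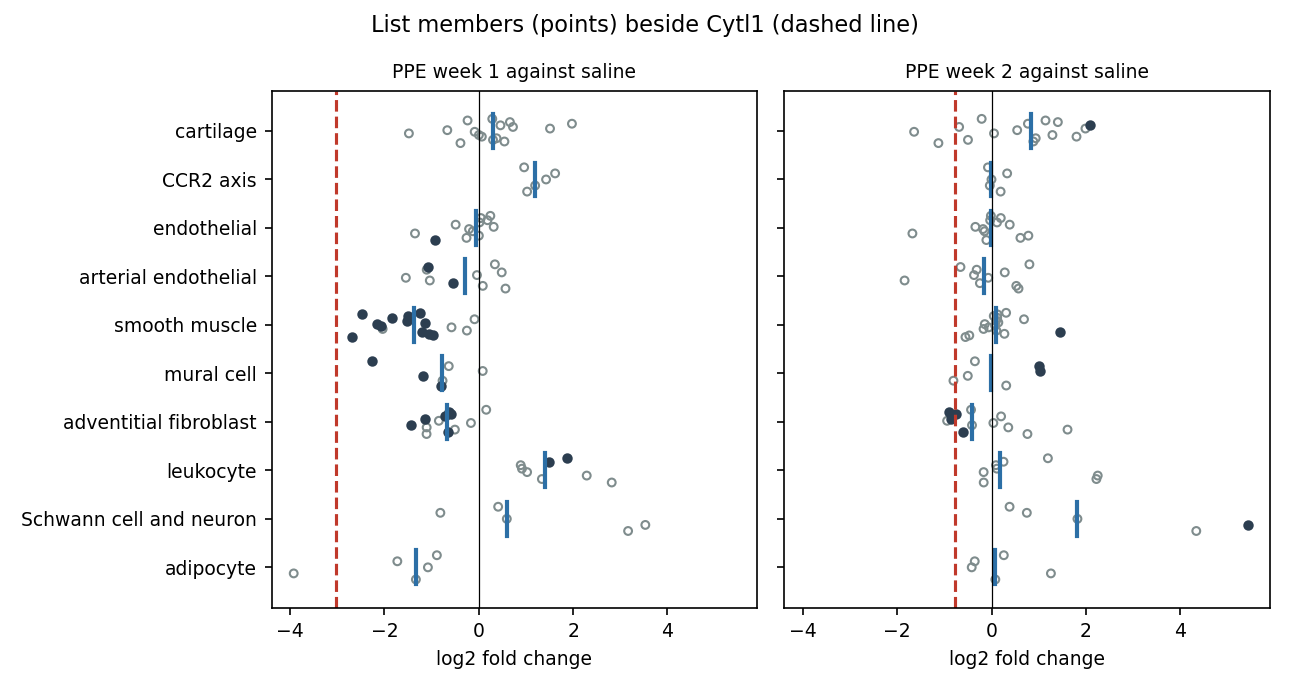
Log2 fold change of every tested member of 10 gene lists at PPE week 1 (left) and PPE week 2 (right), each against saline; filled points had an adjusted p under 0.05, blue bars are list medians and the dashed red line is Cytl1. At PPE week 1 all list medians lie above the -3.03 of Cytl1, the lowest being -1.38 for smooth muscle.

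Lists of other cell types were also set beside Cytl1 at PPE week 1 against saline, where 3.91% of all features were lower and 3.98% higher. Of 6 mural cell genes tested, 3 fell (1 to 4 with a library left out, 1 with the ribosomal RNA covariate), among them Rgs5 with -2.26 (edgeR adjusted p = 0.00211). Of 12 adventitial fibroblast genes, 6 fell (3 to 7 with a library left out, 0 with the covariate), among them Ogn with -1.43 (0.00328), while Pdgfra had 0.16. Of 10 arterial endothelial genes, Efnb2 with -1.08 (0.00406) and Jag1 with -0.54 (0.0321) fell. Jag1 missed the threshold when any 1 of the PPE week 1 or saline libraries was left out (adjusted p at most 0.0964). Gja5 had 16 counts and was not tested. All 8 leukocyte genes tested were above 0, with a median log2 change of 1.41, and 2 passed by edgeR, 6 by DESeq2, 3 by limma-voom and 7 at an unadjusted p under 0.05. The edgeR count was 1 to 5 with a library left out and 7 with only the PPE week 1 and saline libraries in the fit. Of these genes, Ptprc with 1.88 (0.0221, at most 0.0821 with a library left out) and Cd68 with 1.48 (0.00156) rose. All 5 adipocyte genes were below 0, with a median of -1.33 and Ucp1, the uncoupling protein of brown fat, at -3.92 (edgeR adjusted p = 0.227). Of them 0 passed by edgeR, DESeq2 or limma-voom, and 1 was lower at an unadjusted p under 0.05. The summed levels for mural cells were 937 to 1549 CPM at PPE week 1, 2608 to 6166 at PPE week 2 and 3847 to 5107 in saline. For leukocytes they were 2682 to 3679, 797 to 2154 and 1406 to 1683 CPM. At PPE week 2 against saline, 1.35% of all features were lower and 1.3% higher. There 4 of 12 adventitial fibroblast genes were lower, with a median of -0.43 (0 to 4 over the other settings). Of 6 mural cell genes 2 were higher (0 to 3 over the other settings). Of 16 smooth muscle genes 1 was higher and 0 lower, with a median of 0.10.

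Relative to each list's summed CPM, Cytl1 was lower at PPE week 1 than in saline for all 10 lists with at least 5 tested genes, with no overlap between the 4 PPE week 1 and the 4 saline libraries. The log2 difference of that ratio was -1.64 against smooth muscle, -1.23 against mural cells and -1.87 against adipocytes. It was -2.39 against adventitial fibroblasts, -2.76 against endothelium and -4.08 against leukocytes. Cytl1 was chosen for its low level at PPE week 1, so these ratios are a description.

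The summed level of the endothelial list was correlated with Cytl1 within groups. Calls among its genes at PPE week 1 were too few to set apart from the share over all features. Of 12 tested, Ptprb, the receptor phosphatase of endothelium that dephosphorylates Tie2, was the 1 that fell at PPE week 1, where 3.91% of all features did. With the ribosomal RNA share as a covariate it did not pass. Ptprb had 245, 219, 283 and 264 CPM at PPE week 1, 577, 374, 501 and 322 CPM at PPE week 2 and 459, 500, 465 and 492 CPM in saline. The PPE week 1 libraries lay below all others, with a log2 change of -0.92 ± 0.15 at PPE week 1 against saline (edgeR adjusted p = 0.00269). Cdh5, the adhesion protein of endothelial junctions, had 0.25 at PPE week 1 against saline (edgeR adjusted p = 0.492) and Kdr, a VEGF receptor, had 0.19 (0.784). At PPE week 2 against PPE week 1, where 3.77% of all features rose, 3 of the 12 did. Ptprb rose by 0.81 (edgeR adjusted p = 0.00531). Vwf, the von Willebrand factor, rose by 0.87 (0.0204, at most 0.0780 with a library left out). Nos3, the nitric oxide synthase of endothelium, rose by 0.87 (0.0156, at most 0.0597). None of these 3 passed with the ribosomal RNA share as a covariate. The list summed to 1075 to 1255 CPM at PPE week 1, 1209 to 2067 at PPE week 2 and 1288 to 1494 in saline. The PPE week 1 sums thus lay below saline without overlap, and their part in the Cytl1 difference was not tested.

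Within groups, over 12 libraries, the log2 sum of the endothelial list had an r of 0.818 with Cytl1 (two-sided exact permutation within groups, p = 0.00434, and 0.0434 adjusted over 10 lists) and a rho of 0.860 (exact p = 0.00137, adjusted 0.0137). Leaving out the 2 libraries whose sum lay farthest from their group mean, PPE week 2 replicates 1 and 4, gave 0.852. Leaving out 1 library gave 0.688 to 0.869, the lowest without PPE week 2 replicate 1. Without the PPE week 1 libraries it was 0.859. The 9 members with a mean of at least 5 CPM had an r of 0.25 to 0.77 each. The sum follows the abundant members: with the mean of the centred log2 CPM over all 12 members r was -0.01, and over the 9 members of at least 5 CPM it was 0.77. The lists were chosen with earlier results of these data known, and the sum holds Ptprb, already named as like Cytl1. The p-values are therefore a description and do not single out endothelium. The other 9 lists did not pass after adjustment. The nearest by r was Schwann cell and neuron with 0.72 (exact permutation p = 0.0339, adjusted 0.170). By rho it was the CCR2 axis with -0.73 (exact permutation p = 0.0128, adjusted 0.0640), whose r was -0.56 (0.102, adjusted 0.204). Smooth muscle had an r of 0.30 (exact permutation p = 0.444, adjusted 0.634) and leukocytes -0.58 (0.0987, adjusted 0.204). Adipocytes had an r of 0.63 (exact permutation p = 0.090, adjusted 0.204), and 0.16 without the 2 libraries farthest from their group means, PPE week 2 replicates 1 and 2.

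**Figure D5:**
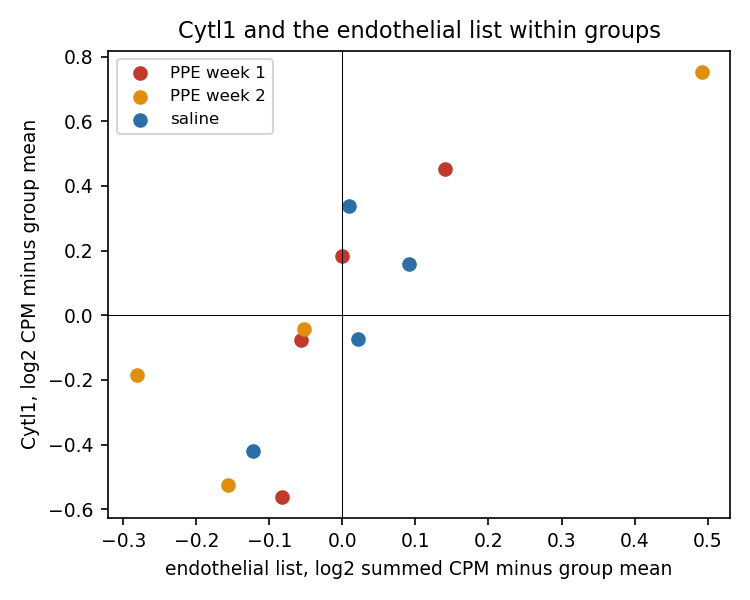
Cytl1 log2 CPM minus its group mean against the log2 summed CPM of 12 endothelial genes minus its group mean, 1 point per library, coloured by group. The points rise together (r 0.818), with PPE week 2 replicate 1 at the upper right.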

How the data were processed

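RNA from 12 aortas was made into libraries with a TruSeq v2 kit after TRIzol and RNeasy Micro extraction, per the labels' protocols; that kit does not mark strand. Of tools, bcl2fastq and DESeq2 appear in the submitters' processing notes, beside the build mm10 and no versions. For the aligner and counter, the tool is not given in the sources used here. Deposited by the authors were raw counts per RefSeq accession and 2 tables of their own comparisons with log2 fold changes, p-values and adjusted p-values, of which only the Cytl1 log2 values and ranks were used. RefSeq for GRCm38.p6 named 34424 of 34755 accessions and GENCODE 192 more.

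Counts were fitted in edgeR 4.0.16 (R 4.3.3): filterByExpr, TMM scaling, a robust quasi-likelihood fit to all 12 libraries with 1 mean per group, and Benjamini-Hochberg adjustment over 12756 accessions, at 0.05. The SE of a log2 change was worked back from the fit, as the change divided by the square root of its quasi-likelihood F statistic. The biological coefficient of variation was 0.512. DESeq2 1.42.0 and limma 3.58.1 (voom) were alternatives. The fit was tested on simulated data. The same number in 2 groups did not pair samples. Replicates are separate animals, and none agreed within sampling noise (lowest chi-square per feature 14.7).

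Likeness is Pearson's r of log2 CPM (prior count 2) minus the group mean, over features with a mean of at least 5 CPM. Named genes are the 10 highest and 5 lowest r within groups, the 10 highest over 12 libraries, the 5 called features next to Cytl1 in log2 change at PPE week 1, 3 neighbours a side, up to 4 called members per list and a set of key markers; those described in the text are from these. The gene, its lists (11, with 126 symbols, 96 tested) and the rules were chosen with earlier results of these data known. Skeletal muscle had 1 tested gene of 5, so that list has no sum. For Cytl1 itself no p is given. One gene among the 20 most like Cytl1 is not reported here by name.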

Additional observations from a re-analysis of the deposited data

Results flagged for a closer look

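Among 81 groups of 4 libraries checked for 27 genes, 4 held a library that stood apart by Dixon's test at its 95% critical value; chance flags about 1 in 20 groups. Plcb4 was at 250 CPM in saline replicate 4, with the nearest saline library at 175 CPM. Itga8 was at 1643 CPM in the same library, the nearest being 1287 CPM. Ech1 was at 33.0 CPM in PPE week 1 replicate 2, the nearest being 50.4 CPM. Wdr60 was at 24.6 CPM in PPE week 1 replicate 1, the nearest being 21.4 CPM. None of the 3 groups of Cytl1 held such a library.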

How the results depend on the processing

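Cytl1 kept its direction in all 21 alternatives of each comparison: -3.20 to -2.87 with 1 library left out and -3.18 to -2.73 otherwise at PPE week 1 against saline, -1.09 to -0.62 and -1.04 to -0.29 at PPE week 2 against saline, and 1.93 to 2.43 and 2.15 to 2.44 between the weeks. Counts of called features moved far more. At PPE week 1 against saline, 508 higher and 499 lower became 857 and 789 by DESeq2, 1034 and 195 by library size only, 1113 and 913 with only the 2 groups, and 23 and 59 with the ribosomal RNA share as a covariate, a share that separates the groups. At PPE week 2 against saline, 166 and 172 became 435 and 362 by DESeq2, 1611 and 27 by library size only, 33 and 41 with only the 2 groups, 91 and 113 with the replicate block, and 0 and 0 with the covariate; limma-voom gave 108 higher. Between the weeks, 481 and 360 became 840 and 680 by DESeq2 and 54 and 15 with the covariate; for lower calls, library size only gave 75, limma-voom 694 and the 2 groups alone 184. Leaving out 1 library gave 156 to 789 higher and 222 to 607 lower, 67 to 218 and 72 to 198, and 207 to 642 and 112 to 607. Of the 20 features most like Cytl1, 4 lower at PPE week 1 became 8 with only the 2 groups, 0 with the covariate and 3 to 6 with a library left out; 3 were higher at PPE week 2 against saline by library size only. Between the weeks, 5 higher became 3 with only the 2 groups, 0 with the covariate and 2 to 8 with a library left out. The 1 lower became 0 by library size only, with only the 2 groups, with the replicate block and with the covariate, and 0 to 1 with a library left out. The likeness set kept 11 of 20 by Spearman's rho, 4 without PPE week 1 and 6 to 17 with a library left out. The endothelial r of 0.818 fell to -0.012 with the mean of all 12 members, a setting chosen after seeing the data. It was 0.768 with the mean of the 9 abundant ones. The replicate block added no pairing: same-numbered libraries correlated by -0.13 to 0.13, and 2 of 12 libraries correlated best with their own number. In each case the cause was not tested. Cytl1 counts of 44 to 134 at PPE week 1 limit its likeness there.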
